A study of Mus musculus with 4 samples.

Results

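The exons described here were the complex cassette exons of 51 to 300 nt that vast-tools, the splicing pipeline named by the authors, tabulated in N2a cells. A cassette exon is included in some transcripts of a gene and skipped in others, and its PSI (percent spliced in) is the share of transcripts, from 0 to 100, that include it. Members were the rows of the cassette table in class C1, C2, C3 or ME with a length of 51 to 300 nt, and there were 13015 of them among 54336 rows. By class they were 4207 C1, 4258 C2, 4221 C3 and 329 ME exons. The classes C1 to C3 stand for a growing share of junction reads that join an exon to sites other than its reference neighbours, and ME marks an exon that is listed with a partner as mutually exclusive. An exon was counted as covered when it had a PSI in all 4 libraries and a first coverage score of LOW, OK or SOK in at least 3 of them. This left 7121 exons in 3295 genes (2235 C1, 2344 C2, 2366 C3 and 176 ME), and 5894 members were not covered. A stricter set of 5809 exons was scored OK or SOK, the highest scores, in all 4 libraries and is called well covered below. The cassette table holds these scores but no read numbers, so the depth behind a single PSI is unknown and no interval is given for it.

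N2a (Neuro-2a) is a mouse neuroblastoma line. Its cells received either non-targeting siRNA, called siControl, or an siRNA to Arglu1, called siArglu1, for 48 h, and were then treated for 4 h with the synthetic glucocorticoid dexamethasone at 100 nM (Dex) or with its vehicle, ethanol (Veh). Each of the 4 combinations of siRNA and treatment is a group with 1 library, for which the mRNA of 3 cultures had been combined. Values below that come as a set of 4 are always in the order siControl Veh, then siControl Dex, then siArglu1 Veh, then siArglu1 Dex. With 1 library per group there is no replicate check and no test of any difference in PSI, so an exon was counted as changed by a rule of size, a ΔPSI of at least 15. The knockdown in vehicle (siArglu1 Veh minus siControl Veh) and the knockdown in Dex (siArglu1 Dex minus siControl Dex) share no library, and neither do Dex in siControl and Dex in siArglu1. Across these pairs, a knockdown pair and a Dex pair always share a library. In bulk RNA, fewer cells that include an exon and less inclusion per cell cannot be told apart.

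ARGLU1 is a coactivator of the glucocorticoid receptor with an N-terminal part, rich in arginine, that interacts with splicing factors and RNA. A simple cassette exon is either skipped or joined to its neighbours. A complex exon has further partners, because an adjacent exon is also optional, because it has alternative splice sites, or because a promoter or a terminal exon lies within the event. In a mutually exclusive pair a transcript carries either exon but not both, and such pairs often arose by duplication of an exon, so that a stretch of the protein is exchanged and its length kept.

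The libraries held between 66074574 and 86541444 reads on genes. Arglu1, the targeted gene, had a cRPKM (an RPKM corrected for the positions of a gene that reads can be mapped to) of 92.56 and 99.89 in the siControl libraries with Veh and Dex, and of 23.83 and 22.62 in the siArglu1 libraries. No exon of Arglu1 itself was a member. Of 14 markers of sympathetic neuroblasts and neurons, 11 had a cRPKM of at least 1 in all 4 libraries, and the neurofilament genes Nefl and Nefm were under 1 in all of them. The summed cRPKM of the 14 was 1424.67, 1356.86, 2029.34 and 1915.68, and 9 of the 11 expressed markers stood higher in both siArglu1 libraries than in both siControl libraries (Phox2a at 44.87, 47.47, 98.83 and 96.9). The exceptions were Th, lower in both siArglu1 libraries (2.58, 4.71, 1.05 and 2.54), and Elavl3 (20.63, 19.72, 18.32 and 20.44). Whether these differences between the libraries had a part in the changes of PSI was not tested. The sum was at most 0.04 for the astrocyte and for the microglia markers, 0.36 for those of fibroblasts, 1.75 for those of muscle (nearly all Des) and 2.17 for those of oligodendrocytes.

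Sequences were taken from GENCODE M21 transcripts. Of the covered exons, 5658 (79.5%) had exactly 1 exon of the same Ensembl gene with the same length and with annotated splice sites at the same distances upstream and downstream. Coordinates below are those of the deposited table, in mm9, and no coordinate of another build was used. The following pairs are shown because they are the well-covered mutually exclusive pairs of equal length, coding in both exons and with a PSI sum within 10 of 100 in all 4 libraries, that moved most on knockdown. Each exon is given 5′ to 3′, and capitals mark the positions at which the exons of a pair differ when laid over each other without gaps.
Tpm1 5′ exon: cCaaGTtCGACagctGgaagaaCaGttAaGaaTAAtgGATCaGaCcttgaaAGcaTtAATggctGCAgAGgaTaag
Tpm1 3′ exon: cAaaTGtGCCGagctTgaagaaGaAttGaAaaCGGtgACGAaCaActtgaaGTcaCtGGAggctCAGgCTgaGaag
Galnt7 5′ exon: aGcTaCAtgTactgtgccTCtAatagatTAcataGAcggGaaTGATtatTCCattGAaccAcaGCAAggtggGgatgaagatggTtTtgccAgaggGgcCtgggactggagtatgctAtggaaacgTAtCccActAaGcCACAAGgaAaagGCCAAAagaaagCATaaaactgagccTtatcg
Galnt7 3′ exon: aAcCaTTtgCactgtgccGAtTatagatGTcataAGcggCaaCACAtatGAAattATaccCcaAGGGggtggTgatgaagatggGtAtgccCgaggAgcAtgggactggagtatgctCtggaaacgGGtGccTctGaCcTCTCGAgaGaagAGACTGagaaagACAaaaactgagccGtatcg
Snap25 5′ exon: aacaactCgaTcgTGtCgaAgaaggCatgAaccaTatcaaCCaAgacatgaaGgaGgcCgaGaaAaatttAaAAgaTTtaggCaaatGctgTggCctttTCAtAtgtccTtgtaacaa
Snap25 3′ exon: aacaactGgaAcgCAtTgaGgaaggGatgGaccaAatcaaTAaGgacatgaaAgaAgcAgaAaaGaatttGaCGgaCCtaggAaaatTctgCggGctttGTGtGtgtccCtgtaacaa
Ate1 5′ exon: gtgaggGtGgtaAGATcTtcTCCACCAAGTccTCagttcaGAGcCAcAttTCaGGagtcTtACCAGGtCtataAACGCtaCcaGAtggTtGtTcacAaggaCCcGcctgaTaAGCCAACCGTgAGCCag
Ate1 3′ exon: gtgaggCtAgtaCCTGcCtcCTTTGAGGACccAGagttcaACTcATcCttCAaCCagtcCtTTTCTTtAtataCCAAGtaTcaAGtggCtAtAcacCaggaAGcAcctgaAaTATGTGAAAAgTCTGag
P4ha1 5′ exon: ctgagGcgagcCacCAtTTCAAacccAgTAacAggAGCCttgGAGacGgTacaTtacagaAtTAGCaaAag
P4ha1 3′ exon: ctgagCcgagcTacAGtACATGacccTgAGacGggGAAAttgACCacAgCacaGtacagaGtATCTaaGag
Mapk8 5′ exon: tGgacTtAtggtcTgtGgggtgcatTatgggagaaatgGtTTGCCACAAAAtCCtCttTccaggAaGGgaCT
Mapk8 3′ exon: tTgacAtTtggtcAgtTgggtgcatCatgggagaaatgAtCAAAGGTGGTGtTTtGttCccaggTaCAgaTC
The exons of Tpm1, which encodes the actin-binding protein tropomyosin, lie on the minus strand at chr9:66880273-66880348 and chr9:66879758-66879833 and were identical at 56.6% of positions. Those of Galnt7, a glycosyltransferase of mucin-type O-glycans, lie on the minus strand at chr8:60021632-60021814 and chr8:60021309-60021491, with 68.9% of positions identical. Those of Snap25, a SNARE protein of synaptic vesicle fusion, lie on the plus strand at chr2:136595479-136595596 and chr2:136595793-136595910 and were the closest of the 6 pairs, with 73.7%. Those of Ate1, the arginyltransferase, were the least alike, with 48.1%. P4ha1, a catalytic subunit of collagen prolyl 4-hydroxylase, had 59.2% and Mapk8, the stress-activated kinase JNK, had 62.5%. Over all 14 well-covered pairs of equal length, identity lay between 48.1% and 75.6% with a median of 64.0%.

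Most complex exons were included in nearly all transcripts. In siControl Veh, 59.6% of the 7121 exons had a PSI of 90 or more, 22.0% of 10 or less and 18.4% a PSI between these limits, called intermediate here. Among 22217 covered simple exons of the same length the shares were 74.3%, 16.5% and 9.24%. The C1 exons had a median PSI of 92.7 in siControl Veh and the lowest inclusion of the C classes, with 28.1% at 10 or less. The C2 exons had a median of 96.6 and the fewest at 10 or less (12.7%), and the C3 exons had a median of 96.0 with 24.6% at 10 or less. The ME exons stood apart, with a median of 30.4, 43.8% intermediate and 23.9% at 90 or more. Between the libraries the median PSI lay between 92.3 and 92.9 for C1, 96.3 and 96.8 for C2, 95.5 and 96.2 for C3, and 30.4 and 34.5 for ME.

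**Figure D1:**
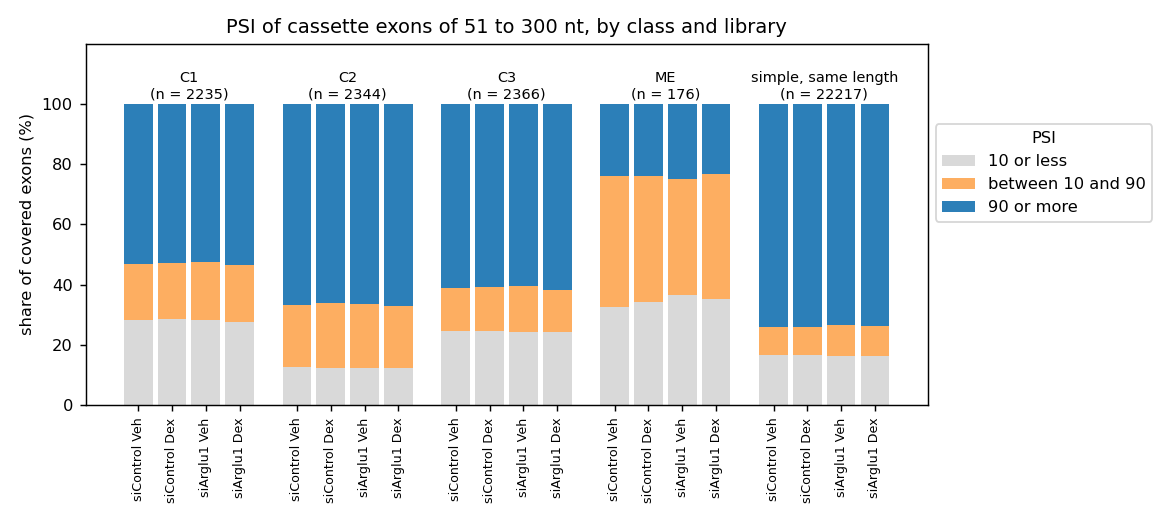
Share of covered exons (%) with a PSI of 10 or less, between 10 and 90, and 90 or more, in each of the 4 libraries, for the classes C1, C2, C3 and ME and for simple exons of 51 to 300 nt; n is the number of exons. The bars hardly differ between libraries, and ME exons have the smallest share at 90 or more (23.9% in siControl Veh).

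The class is a label of the event and not a measurement of these libraries. Each library also has a complexity score of its own, and in siControl Veh 90.2% of the covered members were scored complex in it. The share was 73.8% for C1, 97.6% for C2, 99.8% for C3 and 69.3% for ME, and 26.2% of the C1 exons and 30.7% of the ME exons were scored S (simple) there. The score for balance between the upstream and downstream junctions was OK or B1, its best values, in all 4 libraries for 66% of the C1, 18.2% of the C2, 3.59% of the C3 and 68.2% of the ME exons. Just inside the shorter limit of length, the 118 covered exons of 51 to 53 nt had a median PSI of 87.9 in siControl Veh, and the 107 of 48 to 50 nt just outside it 94.9. Near the longer limit there were 2 exons of 298 to 300 nt and 5 of 301 to 303 nt.

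After Arglu1 knockdown in vehicle, 134 complex exons were higher and 101 lower by at least 15. This was 1.88% and 1.42% of them, against 1.02% higher and 1.37% lower over all 32984 covered cassette rows. After knockdown in Dex, 111 were higher (1.56%) and 76 lower (1.07%), against 0.858% and 1.03% of all rows. The median ΔPSI was 0 in both pairs and 81.3% and 82.9% of the exons moved by less than 5. Among the changed exons 57.0% were higher in vehicle (exact binomial 95% interval 50.4% to 63.4%) and 59.4% in Dex (51.9% to 66.5%), whereas 42.1% and 46.4% of the changed simple exons of the same length were. The interval covers counting of exons only, and exons of a gene are not independent. With 1 exon per gene the shares were 57.7% (46% to 68.8%) in vehicle and 56.6% (42.3% to 70.2%) in Dex. For well-covered exons they were 57.1% (48% to 65.9%) and 58% (48.3% to 67.3%). In both settings the intervals include an even split. Among the 2108 complex exons with balanced junctions in all 4 libraries, 108 were changed in vehicle and 46.3% of these were higher, so the lean to inclusion in vehicle is absent there. In Dex 74 of them were changed and 56.8% were higher. By class the 2108 were 1476 C1, 427 C2, 85 C3 and 120 ME exons, so this set differs in class as well as in balance.

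By class, more of the changed C2 and C3 exons were higher than lower in both pairs. In Dex 73.1% of the changed C2 exons were higher (60.9% to 83.2%) and 60% of C3 (45.2% to 73.6%). In vehicle 64.8% of C3 were (50.6% to 77.3%) and 60.7% of C2 (49.5% to 71.2%). The intervals of C3 in Dex and of C2 in vehicle include an even split. All of these intervals count exons of the same gene as independent, which they are not. The shares were not recomputed per gene within a class, so the intervals cannot decide whether a class leans to inclusion. In the Dex pair 49 C2 exons were higher and 18 lower, and in the vehicle pair 51 and 33. The C3 exons had 35 higher and 19 lower in vehicle and 30 and 20 in Dex. The C1 exons were evenly split, at 38 and 38 in vehicle and 28 and 30 in Dex. The ME exons had the largest share changed, 11.9% of 176 in vehicle (10 higher, 11 lower) and 6.82% in Dex (4 and 8), and the exons of a pair share junctions, so they are not independent. The share of intermediate exons differs between the classes, and an exon near 0 or 100 has little room to move. Among exons that were intermediate in siControl Veh, a library outside the Dex pair, 12.7% of 1312 complex and 10.4% of 2052 simple exons were changed by knockdown in Dex.

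By the same rule applied to both knockdown pairs at once, 45 complex exons (0.632%, in 34 genes) were higher and 26 (0.365%, in 26 genes) lower in each, against 0.303% and 0.497% of all rows, and 3 changed in opposite directions. Of the 235 exons changed in vehicle, 186 (79.1%) had the same sign in Dex, where their median ΔPSI in that direction was 8.8 against 19.8 in vehicle. Among well-covered exons 112 of 126 (88.9%) kept their sign. In the 71 exons changed in both pairs the median absolute ΔPSI between Dex and Veh was 3.1 in siControl and 4.2 in siArglu1, and 11 of them moved by at least 15 with Dex in one or the other.

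**Figure D2:**
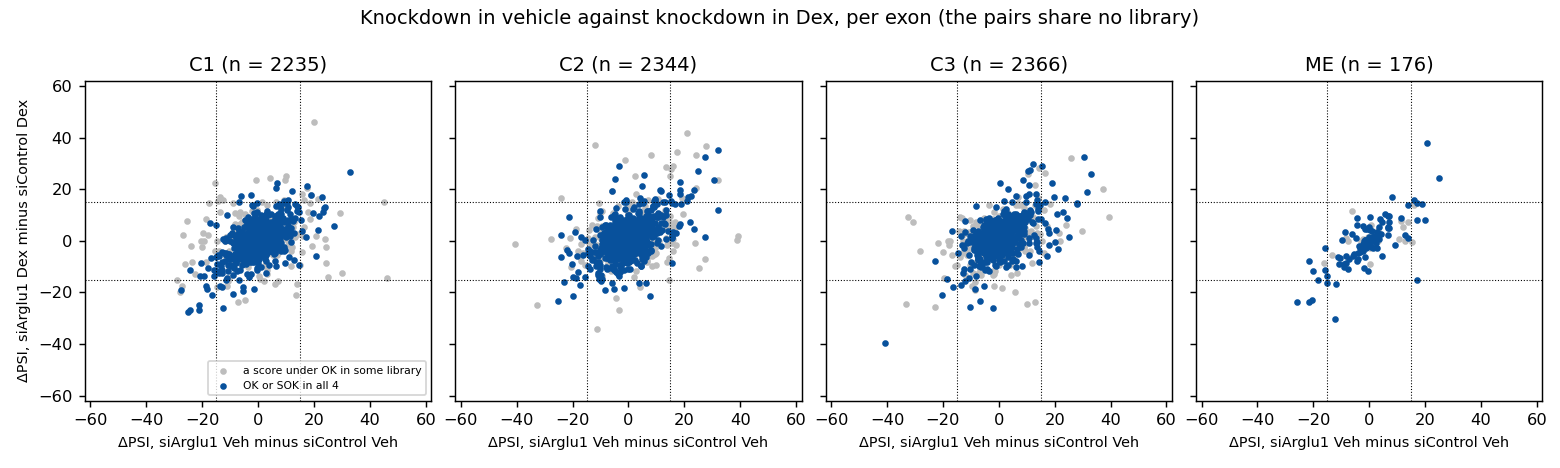
ΔPSI after Arglu1 knockdown in vehicle (x axis) against ΔPSI after knockdown in Dex (y axis) for each covered exon, by class; blue points are scored OK or SOK in all 4 libraries, grey points are not, and dotted lines mark 15. Bin1 is the point at the lower left of the C3 panel, at -40.61 and -39.58.

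By the smaller of both knockdown ΔPSI, the largest gain of inclusion among well-covered exons was in Epb4.1l2. The gene encodes a band-4.1 protein that ties membrane proteins to spectrin and actin. Its 147-nt C2 exon (chr10:25215251-25215397, plus strand) had a PSI of 26.54, 24.37, 58.47 and 59.56. The siArglu1 libraries both stood above 58 and the siControl libraries both below 27, a ΔPSI of 31.93 in vehicle and 35.19 in Dex. The 63-nt exon before it, at chr10:25213373-25213435, had 19.54, 18.57, 46.89 and 51.28. Both are whole multiples of 3 in length and coding in full in GENCODE, and their sequences are shown in lower case, with nothing marked, since this is the consecutive pair with the largest rise.
Epb4.1l2 63-nt exon: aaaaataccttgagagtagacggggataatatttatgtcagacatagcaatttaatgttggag
Epb4.1l2 147-nt exon: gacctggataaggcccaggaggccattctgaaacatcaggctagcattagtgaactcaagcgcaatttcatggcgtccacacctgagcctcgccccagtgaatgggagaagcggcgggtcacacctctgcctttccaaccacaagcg

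The 180-nt C3 exon of Limk2, a kinase that phosphorylates the actin-severing protein cofilin, had a PSI of 43.15, 43.49, 73.54 and 76.0. In GENCODE this exon occurs only in non-coding transcripts. The same was true of the 244-nt exon of Unk, an RNA-binding zinc finger protein of neurons, at 9.55, 8.43, 42.61 and 35.12. In both genes the siControl libraries were within 2 of each other and far below both siArglu1 libraries. The 56-nt exon of Mdm4, an inhibitor of the tumour suppressor p53, had 69.05, 66.34, 88.24 and 88.62. Its length is not a multiple of 3, nor is that of 7 others among the 12 exons with the largest gains.

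Ctso encodes the protease cathepsin O. Its 168-nt exon had a PSI of 32.71, 46.12, 65.52 and 72.12 and the next one, of 122 nt, 54.78, 57.33, 79.78 and 84.25, so that here the siControl libraries differed by 13.41 for the first exon. In Rad54l, a DNA translocase of homologous recombination, the 61-nt exon had 61.9, 66.67, 92.59 and 90.29 and the 136-nt exon 59.09, 59.14, 90.48 and 78.0. In Acad10, of the acyl-CoA dehydrogenase family, the 149-nt exon had 6.85, 11.9, 30.43 and 31.61. The remaining 2 of the 12 largest gains were ME exons of Tpm1 and of Mrps10, described with their partners below.

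Ppfia1 encodes liprin-alpha, a scaffold of focal adhesions and presynaptic sites, and its 63-nt exon (chr7:151675102-151675164, minus strand) had a PSI of 55.71, 55.2, 31.18 and 28.41. The 78-nt exon of Dnm1l, the dynamin-like GTPase that divides mitochondria, had 43.79, 44.13, 23.94 and 22.71 (chr16:16318857-16318934, minus strand). In both genes the libraries of an siRNA lay within 3 of each other. The 2 exons are shown, in lower case with nothing marked, as short coding exons of whole-codon length.
Ppfia1 63-nt exon: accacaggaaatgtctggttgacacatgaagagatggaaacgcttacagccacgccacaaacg
Dnm1l 78-nt exon: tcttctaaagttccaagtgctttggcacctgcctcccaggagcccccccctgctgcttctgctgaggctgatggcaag
Agap1, a GTPase-activating protein of Arf proteins, had a 78-nt exon at 50.23, 47.63, 29.03 and 22.69. Plekha6, which carries a PH domain, had a 54-nt exon at 28.92, 30.91, 8.66 and 10.05. The 216-nt exon of Enah, an actin elongation factor, had 36.45, 35.79, 8.75 and 16.55 and no match in GENCODE by the rule above. In these 3 genes, too, both siArglu1 libraries were below both siControl libraries.

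The largest fall was that of the 108-nt C3 exon of Bin1, an amphiphysin that bends membranes (chr18:32588850-32588957, plus strand). Its PSI was 69.92 and 71.53 with siControl and 29.31 and 31.95 with siArglu1, which is a ΔPSI of -40.61 in vehicle and -39.58 in Dex. The other 4 covered members of Bin1 moved by between -12.5 and -0.31 in vehicle. A second 108-nt exon of Bin1, at chr18:32590404-32590511, had 15.71, 12.67, 7.73 and 10.92.

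Among nuclear proteins, the 54-nt exon of Brca1, which acts in homologous recombination, had a PSI of 53.8, 55.8, 28.45 and 32.65, and the 116-nt exon of Setd8, a histone methyltransferase, 42.06, 50.24, 21.06 and 23.52. The 56-nt exon of Nudt6, a Nudix hydrolase, had 88.24, 89.66, 63.16 and 62.03. The remaining 3 of the 12 largest falls were ME exons of Tpm1, Cyfip1 and Pkm2. Of the 12 exons with the largest falls, 7 were a multiple of 3 in length.

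Genes that the authors singled out for splicing, a list chosen on these samples and so no independent evidence of a direction, had 30 covered members in 12 genes, 15 of them well covered. In vehicle 4 rose and 4 fell, against 1.88% and 1.42% of all complex exons. In Dex 2 rose and 3 fell, against 1.56% and 1.07%. In both pairs 2 rose and 3 fell, against 0.632% and 0.365%. The chromatin-remodelling factor Bptf had a 186-nt exon at 20.54, 24.23, 52.54 and 47.83 and a 191-nt exon at 13.68, 18.97, 50.83 and 39.22, both with a lowest score of VLOW. A 99-nt exon of Mpdz, a scaffold with many PDZ domains, had 75.93, 60.82, 46.94 and 45.45, again with a lowest score of VLOW, and it was also lower with Dex in siControl, at -15.11. The 60-nt exon of the zinc finger gene Zfp187 had 78.08, 61.22, 45.45 and 36.26, with a lowest score of VLOW and a ΔPSI of -16.86 with Dex in siControl. In Dclk2, a doublecortin-like kinase of microtubules, the 82-nt ME exon had 5.25, 8.83, 22.29 and 23.49 and all 4 libraries scored SOK. The members in Tnik, Ptprf and Atg16l2 moved by less than 5 in every comparison.

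The remaining lists were described by count, beside 3.3% of all complex exons changed in vehicle (1.88% higher, 1.42% lower) and 2.63% in Dex (1.56% and 1.07%). Chromatin genes had 101 covered members in 36 genes, of which 4 rose and 1 fell in vehicle and 3 and 1 in Dex, and the median absolute ΔPSI in vehicle was 1.27 against 1.3 over all complex exons. A 57-nt exon of Tet3, a methylcytosine dioxygenase, was among them at 80.92, 67.04, 100.0 and 84.75, with a lowest score of VLOW. Of 70 members in 27 genes of RNA processing 0 were changed in either knockdown pair, which is near the share of all complex exons. A 165-nt exon of the splicing repressor Ptbp2 had 98.43, 97.28, 87.81 and 82.77. Of 132 members in 28 genes of the cytoskeleton, adhesion and the synapse, 6 rose and 5 fell in vehicle and 3 and 3 in Dex. In both pairs 3 rose, all exons of Epb4.1l2, and 1 fell, a 194-nt exon of Ptprs with a lowest score of VLOW. Over all complex exons 0.632% rose and 0.365% fell in both. An exon of Srgap3 changed in opposite directions. Those that fell in vehicle included an 87-nt exon of Abi1, a WAVE complex subunit, at 93.94, 95.9, 74.49 and 82.44. A 63-nt exon of Epb4.1, at 55.86, 49.28, 38.0 and 38.74, also fell.

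Of the 176 covered ME exons, 127 stood in a pair of which both exons were covered members, which gave 64 pairs in 62 genes, 55 of them well covered. If a pair is mutually exclusive and no transcript lacks both exons, the PSI of its exons add to 100. In 34 of the 55 pairs the sum was within 10 of 100 in all 4 libraries, and over all 55 it ranged from 0.85 (a pair with both exons nearly always skipped) to 145.03 in Mrpl48. In GENCODE 42 of the 55 pairs had both exons matched, and no transcript held both exons in 30 of these. Of these 30 pairs, 21 had sums within 10 of 100 in all 4 libraries, as did 3 of the 8 with a shared protein-coding transcript. Among the 34 pairs with such sums the 5′ exon was the major one in all 4 libraries in 16 and the 3′ exon in 14.

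These pairs had been kept for a PSI sum within a narrow range in all libraries. A large rise of an exon therefore came with a fall of its partner by construction, and this exchange is no separate result. The size and direction of the largest changes are given here. In Tpm1 the 5′ exon had a PSI of 34.41, 33.33, 59.41 and 57.81, and the 3′ exon had 66.57, 63.8, 40.87 and 40.23. The major exon was thus the 3′ exon in both siControl libraries and the 5′ exon in both siArglu1 libraries. The sum lay between 97.13 and 100.98, inside the range that the choice of pairs required. Mef2a, a MADS-box transcription factor, had 56.4, 64.97, 69.23 and 67.33 for its 132-nt 5′ exon and 49.69, 37.89, 28 and 30.11 for the 138-nt 3′ exon, so the siControl libraries themselves differed by 11.8 for the latter. In Galnt7 the 5′ exon had 64.2, 59.12, 56.04 and 50.54 and the 3′ exon 30.54, 38.46, 50.5 and 46.6. Here siControl Dex lay between siControl Veh and the siArglu1 libraries.

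In Snap25 the 5′ exon, already the major one, had a PSI of 68.89, 72.49, 87.61 and 86.8 and the 3′ exon 24.69, 25.69, 9.62 and 9.52. Both siArglu1 libraries lay outside the siControl values, and the shift was towards the 5′ exon, as in Tpm1. In P4ha2, a paralog of P4ha1, the 60-nt 5′ exon had 42.2, 44.59, 56.2 and 58.57 and the 66-nt 3′ exon 63.92, 60.33, 45.73 and 45.29. The shift was the opposite way in Ate1, whose 5′ exon had 72.17, 65.76, 56.49 and 54.36 and whose 3′ exon had 25.17, 29.65, 41.11 and 45.34. In GENCODE 1 protein-coding transcript holds both of these Ate1 exons. P4ha1 moved in vehicle, from 41.91 to 55.79 for the 5′ exon, but stood at 48.64 and 49.82 in the Dex pair. Mapk8 stood at 49.39, 44.79, 55.18 and 55.19 for the 5′ exon. Of the 34 pairs, the 5′ exon was higher after knockdown in 20 in vehicle and in 19 in Dex.

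Other pairs did not add to 100. In Cyfip1, a subunit of the WAVE complex, the 148-nt 5′ exon had a PSI of 28.63, 31.91, 7.1 and 8.0 and the 154-nt 3′ exon 86.55, 77.94, 94.87 and 94.78, with a sum of 115.18 in siControl Veh. In Mrps10, a protein of the mitochondrial ribosome, the 109-nt exon had 55.84, 43.14, 76.36 and 81.25 and the 90-nt exon 22.22, 38.03, 10.0 and 7.69, but 4 protein-coding transcripts in GENCODE hold both exons and the sum was 78.06 in siControl Veh. In Mtss1, a protein that bends membranes, the 195-nt exon had 46.7, 43.73, 26.47 and 32.11 while its partner stayed between 4.21 and 6.15. The 167-nt ME exon of Pkm2, the gene of pyruvate kinase, had 86.0, 85.63, 65.39 and 62.68. By its distances to the neighbouring splice sites it was the 5′ exon of the pair, which the M1 form of the enzyme carries. Its partner was no covered member. A longer C3 row of 475 nt, beyond the length limit, had 33.34, 33.08, 61.71 and 63.62.

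**Figure D3:**
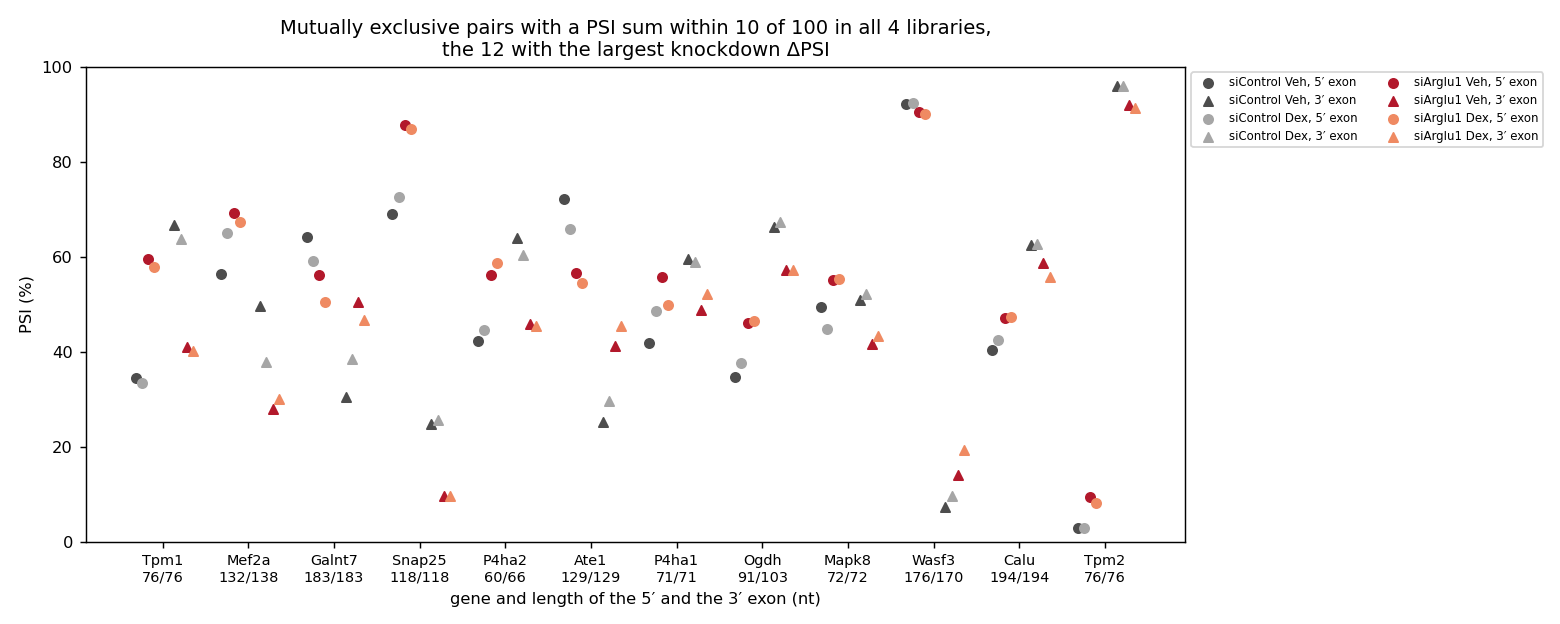
PSI (%) of the 5′ exon (circles) and the 3′ exon (triangles) in the 4 libraries, for the 12 well-covered mutually exclusive pairs with the largest knockdown ΔPSI among those with a PSI sum within 10 of 100 in all libraries; the numbers under a gene are the lengths of the exons in nt. Circles and triangles change places between the siControl and siArglu1 libraries in Tpm1, P4ha2 and Mapk8.

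Known mutually exclusive genes, a list of 47 symbols, had 76 covered members in 29 genes. In vehicle 5 rose and 9 fell and in Dex 1 and 5, with a median absolute ΔPSI of 3.51 and 2.92 against 1.3 and 1.19 over all complex exons. Of all complex exons 1.88% rose and 1.42% fell in vehicle, and 1.56% and 1.07% in Dex. In siControl Veh 33 of the 76 were intermediate, against 18.4% of all complex exons. Of the intermediate complex exons 12.7% were changed by knockdown in Dex. Whether the share of intermediate exons had a part was not tested. Many pairs were fixed on 1 exon in all 4 libraries. Slc25a3, the mitochondrial phosphate carrier, had its 3′ exon at 99.75 to 99.87, and H2afy, which encodes macroH2A, had its 5′ exon at 98.95 to 99.34. Actn1, an alpha-actinin, had its 81-nt 5′ exon at 94.17 to 96.14. Tpm2 had its 5′ exon at 2.78, 2.88, 9.39 and 8.09, the same direction as in Tpm1 at a low level. Mapk10, a neuronal paralog of Mapk8, kept its 5′ exon between 79.37 and 87.89.

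Consecutive members of the same multi-exon event were compared next, to see whether neighbouring exons moved together. There were 1698 such pairs that did not overlap and were not both ME, in 898 genes, and their exons lay a median of 1252.5 nt apart. Such neighbours share junction reads, so they are no independent observations. The PSI of neighbours were close: in siControl Veh they differed by a median of 1.6 among the 1352 well-covered pairs, and by a median of 5.4 in the 225 of these with both exons intermediate. In vehicle at least 1 exon was changed in 112 of the 1698 pairs, both were in 25, and 23 of these moved in the same direction. In Dex the numbers were 119, 22 and 21. Both exons were changed in 22.3% of the pairs with a change in vehicle and in 18.5% in Dex, against 16.1% and 10.6% for 4448 pairs of the same events that were not consecutive. Among well-covered pairs these shares were 18.8% and 13.2% for consecutive and 19.7% and 7.25% for other pairs, so the difference was not seen in vehicle there.

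Runs of at least 2 consecutive exons that all changed in 1 direction numbered 20 in vehicle, 15 of them higher, and 17 in Dex, 15 of them higher. The longest had 4 exons in each. In vehicle it was Rad54l, whose exons of 61, 136, 70 and 157 nt were higher by 23.81 to 31.39. These 4 exons had a PSI of 59.09 to 70.31 in siControl Veh and of 90.48 to 94.12 in siArglu1 Veh. In siArglu1 Dex they stood at 78.0 to 90.29, below siArglu1 Veh for each of the 4 and above both siControl libraries. The 87-nt exon upstream of them was at 95.56 or more throughout, with a lowest score of VLOW. The longest run in Dex was in Zfp532, a zinc finger gene, by 15.18 to 28.92, with lower coverage scores.

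Beside Epb4.1l2, Ctso and Rad54l, the well-covered neighbours with the largest positive ΔPSI in both exons and both knockdown pairs were in 2700049A03Rik, Pank2 and 4833439L19Rik. 2700049A03Rik, also known as Talpid3, is needed for cilia, and its 155-nt exon had 40.95, 35.35, 59.28 and 58.14 and its 109-nt exon 47.9, 45.99, 69.06 and 63.14. Pank2, a pantothenate kinase of coenzyme A synthesis, had 45.4, 46.51, 58.53 and 64.83 for its 198-nt exon and 62.46, 61.34, 75.67 and 76.34 for its 177-nt exon. 4833439L19Rik had 65.99, 68.35, 78.31 and 83.33 for its 179-nt exon and 73.75, 75.71, 90.38 and 90.6 for its 127-nt exon. In each of these genes the exon with the higher PSI in siControl Veh also had the higher PSI in the other libraries.

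Neighbours that moved apart were fewer in this set, which leaves out pairs with both exons ME. Among well-covered pairs, 381 had 4 knockdown ΔPSI of 1 sign and 84 had exons of opposite sign in both pairs of libraries. The largest of the latter was in 4933436C20Rik, where the 135-nt exon had 44.0, 38.61, 59.48 and 67.55 and the 129-nt exon, 57 nt away, 66.23, 58.18, 47.7 and 43.49. In Vdac3, a porin of the outer mitochondrial membrane, a 53-nt exon had 57.89, 69.23, 46.53 and 53.97 and a 228-nt exon 23.08, 25.23, 35.29 and 34.48. In Flot2, a lipid raft protein, 2 exons of 91 nt had 29.84, 29.81, 43.06 and 43.97, and 95.45, 96.49, 86.5 and 86.57. Over all 1698 pairs of any score, 7 of the same direction reached 15 in both exons and both pairs of libraries. Of opposite direction 0 did, and 4 of the 7 were well covered. The ME pair of Tpm1, left out of the 1698, moved in opposite directions by 25 and -25.7 in vehicle and by 24.48 and -23.57 in Dex.

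Some genes moved over many exons at once, by less than 15 for most. Of 249 genes with at least 5 covered members, 16 had a median ΔPSI of at least 5 in the same direction in both knockdown pairs. Those named here were chosen after their values were seen. The same count was not made for the Dex pairs or for simple exons. Exons of the same event share junction reads, so exons that moved together are no independent observations. All 10 covered exons of Acad10 were higher in both pairs, with a median of 13.44 in vehicle and 8.96 in Dex. They stood between 6.85 and 31.96 in siControl Veh and were all scored as well covered. The whole gene, however, had only 212, 268, 371 and 587 reads. Its level was higher by 0.83 and 0.84 on the log2 scale after knockdown in vehicle and in Dex. All 8 exons of Nfat5, a transcription factor of the osmotic stress response, were lower, with a median of -8.62 and -13.36. They lay between 89.33 and 95.03 in siControl Veh, and 3 of them were well covered. All 5 exons of Napg, a SNAP protein of membrane fusion, were higher, by a median of 6.65 and 7.08. Snap91, a clathrin assembly protein of synapses, had 6 of 7 exons lower in both pairs, and the homeodomain gene Cux1 5 of 6.

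**Figure D4:**
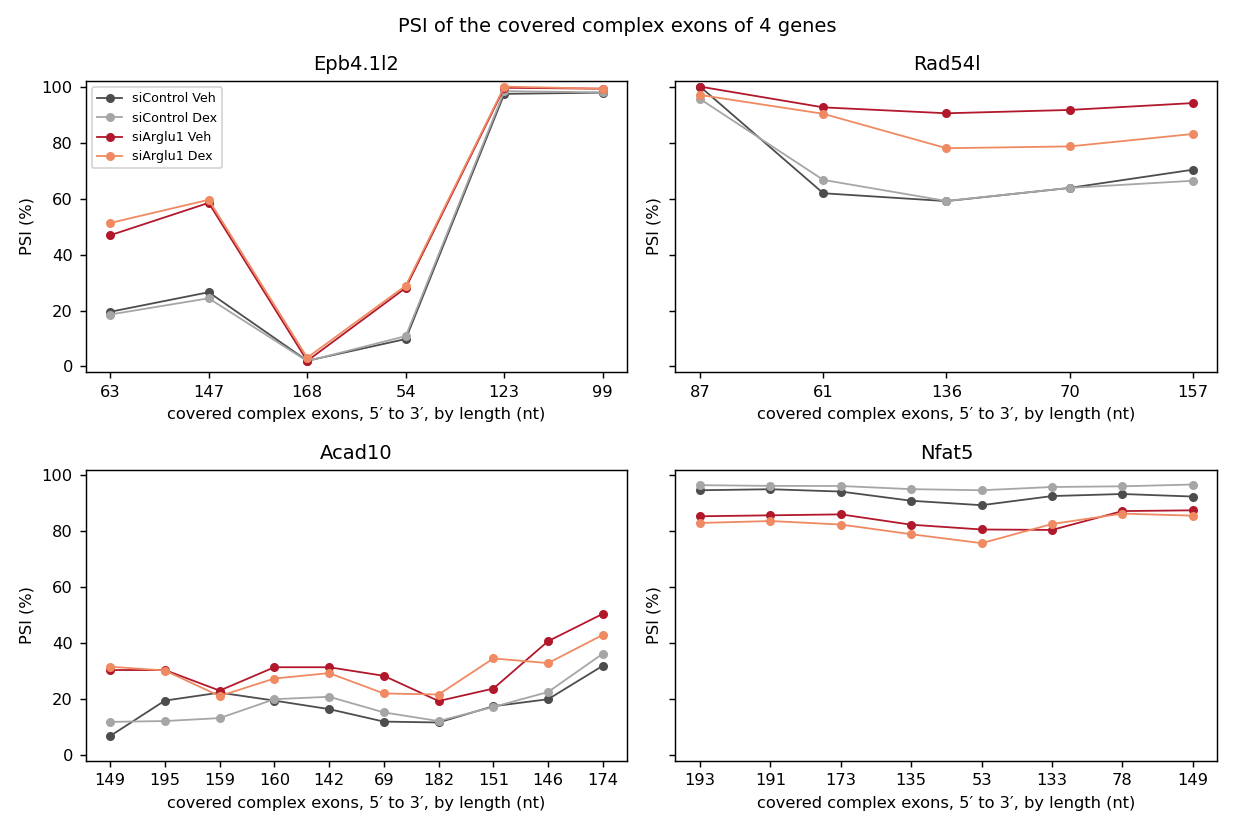
PSI (%) of the covered complex exons of Epb4.1l2, Rad54l, Acad10 and Nfat5 in 5′ to 3′ order, labelled by length in nt, with 1 line per library. The siArglu1 libraries lie above the siControl libraries over the 4 exons of Rad54l that follow the 87-nt exon, and below them at all 8 exons of Nfat5.

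Dex changed fewer complex exons. In siControl 40 were higher and 40 lower (0.562% each), against 0.309% and 0.333% of all rows, and in siArglu1 64 were higher (0.899%) and 37 lower (0.52%), against 0.479% and 0.37%. In both Dex pairs at once, 3 rose (0.0421%) and 2 fell (0.0281%), against 0.0091% and 0.0243% of all rows, and 6 changed in opposite directions. Of the 80 exons changed in siControl, 44 (55.0%) had the same sign in siArglu1, with a median ΔPSI of 1.1 in that direction. Among well-covered exons 12 of 25 did, and none changed by 15 in both pairs. Of the 5, 2 were exons of Rbm6, an RNA-binding splicing regulator, of 70 nt (37.5, 55.88, 35.85 and 67.12) and 90 nt (36.59, 53.85, 23.4 and 62.86), with a lowest score of LOW. The others were a 110-nt exon of Tbl1xr1 and, among the lower ones, exons of Klhl18 and 4930578N16Rik.

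The well-covered exons with the largest shift of the same sign in both Dex pairs were below or near the rule of size. Sfi1, a centrosomal protein, had a 184-nt exon at 70.91, 90.48, 70.0 and 84.85. The 140-nt exon of Aim2, a DNA sensor of the inflammasome, had 68.83, 84.13, 72.88 and 86.3. In both genes the Dex libraries lay above the Veh libraries whichever siRNA was used. Zkscan5, Pgap2 and Psma3 had a smaller ΔPSI of the 2 pairs between 9.01 and 11.52. On the other side, the 92-nt exon of the zinc finger gene Zkscan6 had 97.47, 85.71, 95.88 and 85.32, and the 90-nt exon of Ralgps1, an exchange factor of Ral, 100.0, 87.5, 100.0 and 90.16. For Zscan21 and Sipa1l1 the smaller ΔPSI of the 2 pairs was -9.37 and -8.75.

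The share of changed exons was lowest at the highest coverage scores. Among the 3342 exons scored SOK in all 4 libraries, 1.71% were changed by knockdown in vehicle and 1.47% in Dex, and 0.0598% and 0.209% by Dex in siControl and siArglu1. Among the 534 exons with a lowest score of VLOW the shares were 8.99%, 5.99%, 4.49% and 4.68%, and among the 159 with a lowest score of N they were 11.9%, 5.03%, 2.52% and 11.3%, so the order did not hold at the lowest score for knockdown in Dex and Dex in siControl. The sign of the knockdown change in vehicle was the same in Dex in 94.7% of 57 changed exons scored SOK throughout, in 84.1% of 69 with a lowest score of OK, in 66.7% of 42 with LOW, in 75% of 48 with VLOW and in 52.6% of 19 with N. Of the 11 exons changed in both Dex pairs in either combination of directions, all had a lowest score of LOW or less.

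**Figure D5:**
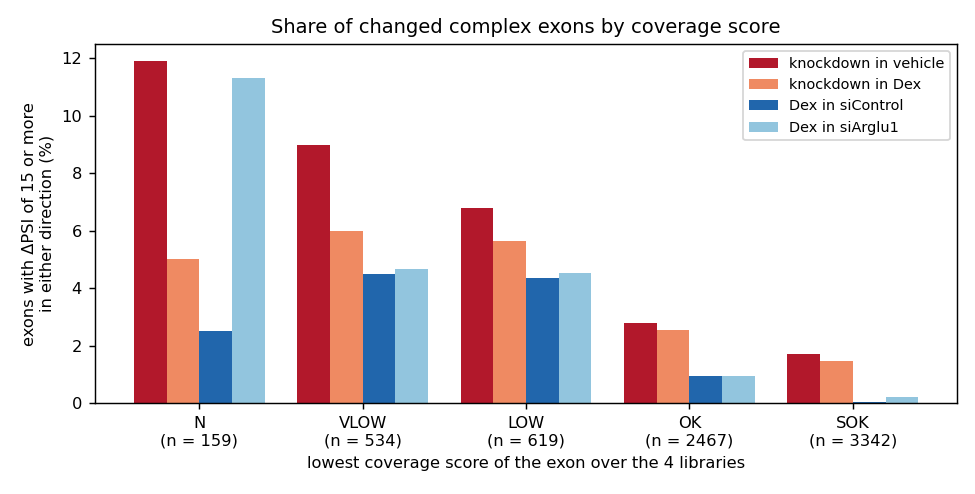
Share of covered complex exons (%) with a ΔPSI of at least 15 in either direction in each of the 4 comparisons, by the lowest coverage score of the exon over the 4 libraries; n is the number of exons. The share changed by Dex is 0.0598% and 0.209% at SOK, where that for knockdown is 1.71% and 1.47%.

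The exons had a median length of 115 nt, and 37.6% were a multiple of 3, against 40.1% of the simple exons of the same length. By class the share was 39.6% for C1, 36.6% for C2, 36.9% for C3 and 35.8% for ME. Among exons higher in both knockdown pairs 20 of 45 (44.4%) and among those lower 14 of 26 (53.8%) were a multiple of 3. Of the matched exons 80.9% were coding in full in a protein-coding transcript, 6.66% coding in part, 5.97% in a UTR, 3.08% only in transcripts marked for nonsense-mediated decay or non-coding, and 3.36% only in non-coding transcripts. Of the 42 matched exons higher in both pairs, 6 (14.3%) were only in non-coding transcripts, among them those of Limk2 and Unk. Of the 23 matched exons that were lower none was and 21 were coding in full. The median GC content was 44.9% for the former and 53.3% for the latter. As under 80% of all covered exons were matched, a comparison of GC content or annotation with all complex exons is void.

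The 71 exons that changed in both knockdown pairs lay in 59 genes, of which 56 had at least 75 reads over the 4 libraries. The levels of 6 of them (10.7%) differed by at least 0.81 on the log2 scale in the same direction in both knockdown pairs, against 9.89% of all 12497 genes with such reads. Cdk10, a cyclin-dependent kinase, was higher by 2.01 in vehicle (exact 95% interval 1.89 to 2.13) and 1.97 in Dex (1.86 to 2.09). Tpm1 was higher by 1.21 (1.17 to 1.26) and 1.17 (1.13 to 1.21), and Agap1 lower, at -1.27 (-1.34 to -1.21) and -1.08 (-1.14 to -1.03). The intervals cover counting of reads only. The others were 4933436C20Rik, Pih1d2 and Acad10, all higher. Bin1 was at 0.42 and 0.38, Snap25 at 0.01 and -0.09 and Pkm, the current name of Pkm2, at 0.01 and -0.02, and the median over the 56 genes was -0.16 and -0.07.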

How the data were processed

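RNA-seq libraries of polyA-selected RNA were made from N2a cells by the authors with TruSeq V2 kits and sequenced on a HiSeq2500. The submitters' processing notes name Bowtie and mm9, and the paper names vast-tools for PSI. The authors deposited a cassette table with the PSI of each exon as a percent and 5 scores per library, and a gene table with read counts and cRPKM, an RPKM corrected for mappability. The meaning of a star after a class, and how scores were set, was not given in the sources used here. A gene count given as NA was taken as 0 reads. The authors' 2 unnamed columns of Dex over Veh cRPKM ratios and the 2 tables of Alt3 and Alt5 were not used.

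Covered exons and ΔPSI were computed in Python 3.11.15 (pandas 2.3.3, scipy 1.17.1) with the rules stated above. Gene levels were log2 CPM with TMM factors of edgeR 4.0.16 in R 4.3.3 (prior count 1, genes with at least 75 reads). Exons were matched to GENCODE M21, a build other than mm9, by length and distance to splice sites only. The scripts were tested on simulated data.

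No replicate exists, so no p-value is given. The members and lists were chosen with earlier results of these data known. Named exons follow a rule: well-covered exons ranked by the smaller of both knockdown (12 each way) or Dex (5 each way) ΔPSI, 8 and 4 neighbouring pairs, all mutually exclusive pairs, and gene lists. For each exon count 6 alternatives and for host genes 3 were tried. Of the exons this rule names, 1 is not reported here.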

Additional observations from a re-analysis of the deposited data

Results flagged for a closer look

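In 3 covered exons the knockdown ΔPSI was at least 15 in opposite directions in vehicle and in Dex, and in 6 the Dex ΔPSI was so in siControl and siArglu1. The difference between the pairs was not tested, and there is 1 library behind each value. The 103-nt exon of Srgap3 moved by 16.96 on knockdown in vehicle and by -15.35 in Dex, with PSI, in the order of libraries used above, of 77.85, 100.0, 94.81 and 84.65 and a lowest score of OK. The 114-nt exon of Sdccag8 moved by -15.55 on knockdown in vehicle and by 22.3 in Dex, with PSI, in the order of libraries used above, of 65.42, 52.12, 49.87 and 74.42 and a lowest score of VLOW. The 148-nt exon of 2010001A14Rik moved by -24.04 on knockdown in vehicle and by 16.5 in Dex, with PSI, in the order of libraries used above, of 77.27, 55.56, 53.23 and 72.06 and a lowest score of LOW. The exon of 2010001A14Rik is also among those of the Dex pairs, since these use the same 4 libraries, by -21.71 in siControl and 18.83 in siArglu1.

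With Dex, the 115-nt exon of Gria2 moved by -16.99 in siControl and by 22.28 in siArglu1, with a lowest score of VLOW. With Dex, the 111-nt exon of Traf3 moved by 15.16 in siControl and by -17.7 in siArglu1, with a lowest score of LOW. With Dex, the 180-nt exon of Zfp239 moved by -21.97 in siControl and by 15.83 in siArglu1, with a lowest score of LOW. With Dex, the 59-nt exon of Fancl moved by -17.53 in siControl and by 31.58 in siArglu1, with a lowest score of N. With Dex, the 73-nt exon of St18 moved by -19.72 in siControl and by 22.06 in siArglu1, with a lowest score of N. Of the 9 entries, that of Srgap3 is the one that was well covered.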

How the results depend on the processing

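Counts are given in the order knockdown in vehicle, knockdown in Dex, Dex in siControl, Dex in siArglu1, same direction in both knockdown pairs and same direction in both Dex pairs, where they were 235, 187, 80, 101, 71 and 5. With a ΔPSI of 25 they were 47, 42, 5, 21, 10 and 0. With scores of OK or SOK in all 4 libraries they were 126, 112, 25, 30, 46 and 0. With no coverage minimum they were 1172, 1043, 879, 945, 302 and 167, over 11745 exons. With balanced junctions in all 4 libraries they were 108, 74, 32, 40, 32 and 1. With 1 exon per gene they were 78, 53, 27, 23, 20 and 0. The lower counts come with fewer exons or a stricter rule by construction. The percent higher among changed exons for knockdown in vehicle turned from 57.0 to 46.3 with balanced junctions, a set made up mostly of C1 exons. For knockdown in Dex it was 73.8 at a ΔPSI of 25, against 59.4. For Dex in siControl it was 68.0 with scores of OK or SOK and 31.2 with balanced junctions, against 50. For Dex in siArglu1 it was 52.4 at a ΔPSI of 25 and 73.3 with scores of OK or SOK, against 63.4. The cause of these shifts was not tested. The other 37 values, among them all with starred classes or, as an alternative chosen after seeing the data, ME exons left out, stayed within 1.5 times the count or within the interval of the percent. Host genes past 0.81 numbered 5 with cRPKM and 6 with no read minimum and with median-of-ratios factors, against 6.

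No paired analysis was possible because there is 1 library per group, and for the same reason no replicate was left out. Depth per exon is known only as score words. Most C2 and C3 exons lacked the best scores for junction balance in at least 1 of the 4 libraries. Mutually exclusive pairs and neighbours share junction reads.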
